A study of Homo sapiens with 12 samples.

Results

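The comparison described here set A2058 cells transfected with the first of 2 siRNAs against SOX10 (siSOX10_1) beside A2058 cells given a control siRNA with no intended target (siCNTL), an established human line of cutaneous melanoma. It used 6 of the 12 RNA-seq libraries of the series, 3 per group, with 1 library of each group in each of batches 1, 2 and 3, and its members were all 14508 of 61587 genes that reached 1 TPM in 3 or more of those 6 libraries. Both siRNAs were given at 12.5 nM with a lipid reagent, and RNA was taken after 96 hours. The other libraries were 3 of cells given a second SOX10 siRNA (siSOX10_2) at the same dose and time and 3 of untreated cells, and they are used only where named. The labels do not say whether the batches were separate cultures, so the p-values reflect only how these libraries vary, which may be technical. All groups are 1 cell line, and no other line was compared.

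SOX10 is a neural crest DNA-binding regulator that keeps melanocytes and Schwann cells in their lineage. In melanocytes it acts with PAX3 on MITF, which in turn drives the pigment genes, and melanoma cells with little SOX10 are known for a dedifferentiated, invasive state rich in extracellular matrix and inflammatory products. Besides SOX10, the title of the series mentions ITGA3, EPHA2, IRF1 and FAK (gene PTK2).

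Values are TPM, transcript abundances scaled by gene length and to the same total in each library, and each run of 3 values is in the order of batches 1, 2 and 3. A batch difference is log2(TPM + 1) in the siSOX10_1 library minus log2(TPM + 1) in the siCNTL library of that batch, and the log2 fold change is the mean of the 3, with its standard error from limma. This scale understates the change of low genes. A gene was called where limma's Benjamini-Hochberg adjusted p over the 14508 genes was under 0.05, and "rose" and "fell" are written only of called genes. Sequencing depth cannot be read from TPM and is unknown here.

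Promoters of 8 genes that carry the main groups of results are shown first, from 250 bases before to 50 bases after the start of the gene, from RefSeq on GRCh38.p14. MLANA and SLC24A5 stand for the pigment genes that fell, IL1B and CXCL8 for the cytokines, ITGA1 and ITGA11 for the integrins, and MKI67 and TOP2A for the mitotic genes that rose. They lie at chr9:5890639-5890938 (plus strand, MLANA), chr15:48120740-48121039 (plus, SLC24A5), chr2:112836730-112837029 (minus, IL1B), chr4:73740319-73740618 (plus, CXCL8), chr5:52787666-52787965 (plus, ITGA1), chr15:68432114-68432413 (minus, ITGA11), chr10:128126374-128126673 (minus, MKI67) and chr17:40417847-40418146 (minus, TOP2A). Each is written 5′ to 3′ on the strand of the gene, and capitals mark matches to any of the motifs searched on both strands: the core of the M-box bound by MITF (CATGTG), the AP-1 site (TGANTCA), the NF-kB consensus, the cell cycle homology region (TTTGAA) and the SOX core (ACAAAG).
MLANA: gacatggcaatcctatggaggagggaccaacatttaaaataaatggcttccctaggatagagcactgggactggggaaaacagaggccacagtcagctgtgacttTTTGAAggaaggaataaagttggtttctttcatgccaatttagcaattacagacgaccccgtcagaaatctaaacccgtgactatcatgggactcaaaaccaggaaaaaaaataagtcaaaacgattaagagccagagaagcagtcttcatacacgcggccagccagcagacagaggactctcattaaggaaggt
SLC24A5: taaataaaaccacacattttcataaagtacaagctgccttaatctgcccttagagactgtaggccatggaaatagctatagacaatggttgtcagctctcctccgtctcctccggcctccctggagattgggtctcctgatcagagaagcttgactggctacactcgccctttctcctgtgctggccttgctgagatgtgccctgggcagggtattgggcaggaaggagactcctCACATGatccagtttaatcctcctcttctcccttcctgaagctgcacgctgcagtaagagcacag
IL1B: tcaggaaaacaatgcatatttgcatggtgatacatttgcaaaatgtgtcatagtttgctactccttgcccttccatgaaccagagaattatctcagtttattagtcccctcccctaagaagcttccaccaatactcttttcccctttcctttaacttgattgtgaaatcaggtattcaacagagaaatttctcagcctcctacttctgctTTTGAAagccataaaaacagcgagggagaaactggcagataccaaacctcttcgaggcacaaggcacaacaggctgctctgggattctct
CXCL8: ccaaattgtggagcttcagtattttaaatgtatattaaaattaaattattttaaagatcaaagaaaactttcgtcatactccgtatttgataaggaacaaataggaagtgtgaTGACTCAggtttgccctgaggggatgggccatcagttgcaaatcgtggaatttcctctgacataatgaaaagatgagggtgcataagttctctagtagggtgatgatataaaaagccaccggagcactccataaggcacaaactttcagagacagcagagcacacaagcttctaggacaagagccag
ITGA1: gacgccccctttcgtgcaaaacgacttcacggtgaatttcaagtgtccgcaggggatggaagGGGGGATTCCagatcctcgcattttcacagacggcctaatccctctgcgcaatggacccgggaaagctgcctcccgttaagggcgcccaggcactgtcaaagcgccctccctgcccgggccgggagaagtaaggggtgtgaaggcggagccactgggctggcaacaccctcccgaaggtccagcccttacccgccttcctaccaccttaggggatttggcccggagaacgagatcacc
ITGA11: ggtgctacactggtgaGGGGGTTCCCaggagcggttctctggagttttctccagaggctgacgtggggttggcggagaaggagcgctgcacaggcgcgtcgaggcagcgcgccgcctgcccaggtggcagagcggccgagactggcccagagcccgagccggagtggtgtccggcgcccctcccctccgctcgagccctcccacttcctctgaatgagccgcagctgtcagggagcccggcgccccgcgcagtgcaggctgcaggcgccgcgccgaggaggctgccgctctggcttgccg
MKI67: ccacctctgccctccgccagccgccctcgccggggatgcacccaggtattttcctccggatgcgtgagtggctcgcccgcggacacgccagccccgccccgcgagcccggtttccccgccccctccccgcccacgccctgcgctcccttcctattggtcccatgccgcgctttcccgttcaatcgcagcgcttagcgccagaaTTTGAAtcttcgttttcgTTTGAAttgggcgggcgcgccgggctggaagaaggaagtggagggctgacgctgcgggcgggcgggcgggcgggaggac
TOP2A: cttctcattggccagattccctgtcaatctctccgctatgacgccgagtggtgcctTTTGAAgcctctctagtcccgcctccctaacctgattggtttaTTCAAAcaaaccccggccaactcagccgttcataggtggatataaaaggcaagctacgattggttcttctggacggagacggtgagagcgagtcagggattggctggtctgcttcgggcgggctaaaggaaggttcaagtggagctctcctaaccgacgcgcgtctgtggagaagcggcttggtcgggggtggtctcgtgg

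Among 10154 tested genes with a promoter in the reference table, 6.5% of these windows held the M-box core, 4.5% the AP-1 site, 13.1% the NF-kB consensus, 9.5% the cell cycle homology region and 10.5% the SOX core. The M-box core stood in 6 of the 8 matched pigment genes that fell, and SLC24A5 was one of them. The cell cycle homology region stood in 16 of 23 matched G2/M genes that rose, and both MKI67 and TOP2A held 2 copies. The NF-kB consensus stood in 5 of 9 matched cytokine genes and 5 of 9 matched integrin genes that rose, and the AP-1 site in 3 of the 9 cytokine genes, CXCL8 among them. The SOX core was found in 1 of the 8 pigment promoters, and the AP-1 site and the cell cycle homology region in 2 each. Over all genes that rose, the shares were closer to those of all tested genes. They were 14.2% for the NF-kB consensus, 5.5% for the AP-1 site and 11.5% for the cell cycle homology region. Over all genes that fell, 8.1% held the M-box core. A match in these windows is a description of the letters and not a bound site.

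SOX10 itself, the check of the siRNA, was at 12.8, 12.8 and 3.32 TPM in the siSOX10_1 libraries and 30.0, 28.6 and 36.8 TPM in the siCNTL libraries. The groups did not overlap, and the batch 3 siSOX10_1 library was the lowest. The log2 fold change was -1.80 ± 0.411 (limma adjusted p = 0.00723), with batch differences of -1.17, -1.10 and -3.13. POLR2F, an RNA polymerase subunit gene that overlaps SOX10 on the opposite strand, also fell (log2 fold change -0.57), and reads of the pair may not be separable because no source used here says whether counting used strand. In bulk RNA, fewer cells of a type and less RNA per cell cannot be told apart, here and below.

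MITF, the melanocyte master regulator, was at 133, 131 and 35.6 TPM with siSOX10_1 and at 321, 349 and 465 TPM with siCNTL. It fell in every batch, by 1.26, 1.40 and 3.67 on the log2 scale (adjusted p = 0.0258). Its call was lost without siCNTL replicate 3 or siSOX10_1 replicate 3, with an adjusted p of up to 0.0786, and without batch 1 or batch 2, with one of up to 0.113. The siCNTL libraries carried the other melanocyte markers at high levels, such as PMEL at 3963, 4187 and 1825 TPM, which fits the label of a melanoma line.

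Among the other genes of the series title, ITGA3, an integrin alpha chain that binds laminins, was at 176, 149 and 220 TPM with siSOX10_1 and 4.26, 6.39 and 5.54 TPM with siCNTL. EPHA2, a receptor for ephrins, was at 29.1, 30.8 and 32.4 TPM with siSOX10_1 and 9.14, 9.04 and 10.4 TPM with siCNTL. PTK2, the focal adhesion kinase, was at 116, 126 and 106 TPM with siSOX10_1 and 68.2, 79.8 and 92.5 TPM with siCNTL. None of these 3 overlapped between groups. The ITGA3 rise (log2 fold change 4.83 ± 0.154, adjusted p = 1.27e-09) and the EPHA2 rise (1.60 ± 0.148, adjusted p = 7.27e-06) were nearly the same size in each batch, at 5.08, 4.34 and 5.08 for ITGA3 and 1.57, 1.66 and 1.55 for EPHA2. PTK2 rose less (0.54 ± 0.129, adjusted p = 0.00644), with batch differences of 0.76, 0.65 and 0.20. The PTK2 call was lost in the fits without batch 1 or without batch 2, where the adjusted p was 0.136 and 0.0781.

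IRF1, which activates interferon-responsive promoters, was at 64.6, 49.7 and 27.3 TPM with siSOX10_1 and 8.68, 39.3 and 5.79 TPM with siCNTL. The groups overlapped, because the batch 2 siCNTL library was above the batch 3 siSOX10_1 library. Within batches the differences were 2.76, 0.33 and 2.06 (log2 fold change 1.72 ± 0.434, adjusted p = 0.0145), so the batch 2 pair showed little of the rise. IRF1 was no longer called after leaving out siCNTL replicate 1 (adjusted p = 0.0519) or 3 (0.0685) siSOX10_1 replicate 1 (0.0601) or 3 (0.0539), batch 1 (0.136) or batch 3 (0.220). IRF1-AS1, which overlaps IRF1, also rose, at 8.29, 8.92 and 5.14 TPM with siSOX10_1 and 2.96, 3.52 and 2.27 TPM with siCNTL. Its call was lost without batch 1 (adjusted p = 0.0735).

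**Figure D1:**
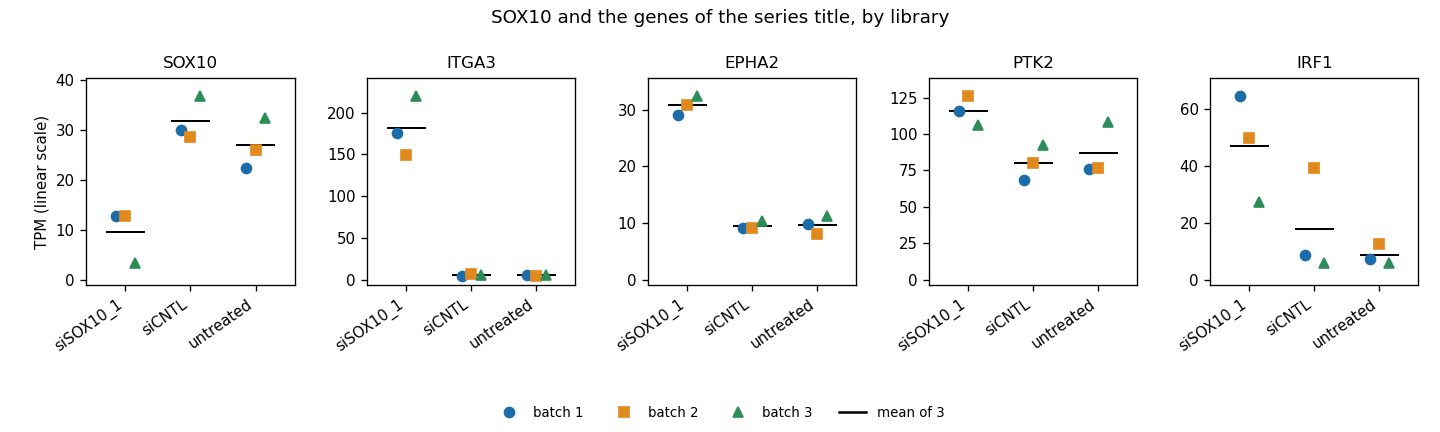
TPM (linear axes, 1 per gene) of SOX10, ITGA3, EPHA2, PTK2 and IRF1 in each library of siSOX10_1, siCNTL and untreated cells; markers show the batch and lines the mean of 3 libraries. SOX10 is lower and ITGA3 and EPHA2 are higher in all 3 siSOX10_1 libraries, while the batch 2 siCNTL library of IRF1, at 39.3 TPM, lies within the range of the siSOX10_1 libraries.

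Across the transcriptome, 2764 of the 14508 genes rose (19.1%) and 2347 fell (16.2%). At least a 2-fold change was seen in 1020 of those that rose and 795 of those that fell, and at least a 4-fold change in 205 and 120. Of the genes that rose, 2744 (99.3%) were higher in all 3 batches, and of those that fell, 2323 (99.0%) were lower in all 3. Over all tested genes, 31.6% were higher and 27.3% lower in all 3 batches. A call rests on the mean of the same 3 batch differences, so it favours a shared direction. The high shares in called genes are therefore no separate support, here or below. The libraries of the groups did not overlap for 2592 of the genes that rose and 2035 of those that fell. The share over all tested genes was not counted. A call favours such separation, so a lack of overlap in called genes is no separate support, here or below. Protein-coding genes made up 2606 of the genes that rose and 1975 of those that fell, of 11871 tested. Of 1628 long non-coding RNAs tested, 122 rose and 257 fell.

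The size of the change by batch differed between genes that rose and genes that fell. Genes that rose had a median difference of 0.97, 0.77 and 0.77 in batches 1, 2 and 3, and genes that fell had -0.75, -0.74 and -0.92. Batch 3 held the largest difference of the 3 for 52.4% of the genes that fell and 33.2% of those that rose. Its siSOX10_1 library had the lowest SOX10 and its siCNTL library the highest. Whether SOX10 had a part in these differences was not tested. Over all tested genes the median difference was 0.12, 0.04 and -0.04, with an SD of 0.842, 0.782 and 0.948.

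Each batch was also read against calls made from the other batches alone. Genes called from batches 2 and 3 (1365 higher, 1298 lower) had the same direction in batch 1 in 99.0% and 98.1% of cases. For batch 2, calls from the other batches (1804 higher, 1563 lower) had the same direction in 98.8% and 89.5%. For batch 3 (2934 higher, 2224 lower from the others), the shares were 88.1% and 91.8%. Over all tested genes, 56.7%, 52.6% and 47.2% were higher in batches 1, 2 and 3. For higher genes the median difference in the batch left out was 1.22 in batch 1 against 1.15 in the batches used, 0.88 in batch 2 against 1.09, and 0.64 in batch 3 against 0.89. For lower genes it was -0.86 in batch 1 against -1.07, -0.76 in batch 2 against -1.08, and -0.76 in batch 3 against -0.80.

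Composition differed as well. FTL, the light chain of the iron store ferritin, took 3.89%, 3.54% and 3.03% of all TPM with siSOX10_1 and 1.14%, 1.22% and 1.21% with siCNTL. Cytosolic ribosomal proteins together took 7.29%, 7.25% and 7.22% with siSOX10_1 and 10.3%, 9.11% and 9.52% with siCNTL. Since TPM sum to a fixed total, a gain in abundant genes lowers all others. The median log2 fold change over all tested genes was 0.03, and it was -0.01 under median-of-ratios scaling and under quantile normalization.

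The 10 genes with the largest rise by the naming rule were IL1B, PTGES, CCL5, MMP9, KRT81, ANGPTL4, ITGA1, HSD11B1, ITGA3 and TGM2. The first 2 make inflammatory signals: IL1B is interleukin 1 beta and PTGES makes prostaglandin E2. PTGES was at 771, 701 and 832 TPM with siSOX10_1 and 8.39, 5.98 and 7.22 TPM with siCNTL (log2 fold change 6.56 ± 0.106, adjusted p = 1.26e-12). ANGPTL4, a secreted regulator of lipoprotein lipase, was higher by 5.23, 5.19 and 5.36 in batches 1, 2 and 3 (5.26 ± 0.108, adjusted p = 1.22e-11). HSD11B1, which regenerates cortisol, was at 26.6, 23.0 and 72.6 TPM with siSOX10_1 and at 0, 0.123 and 0 TPM with siCNTL. In each of these genes the lowest siSOX10_1 library was far above the highest siCNTL library, but the rule that picked them favours such separation.

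The 10 genes with the largest fall were GJB1, RLBP1, CPN1, TRPM1, FABP7, PHACTR1, CAPN3, FXYD3, ROPN1 and HPGD. GJB1, the connexin of myelinating Schwann cells, was at 7.11, 9.60 and 1.06 TPM with siSOX10_1 and 89.1, 99.1 and 59.7 TPM with siCNTL (log2 fold change -3.86 ± 0.281, adjusted p = 1.68e-06). FABP7, a fatty acid binding protein of glia, was at 16.7, 13.8 and 2.50 TPM with siSOX10_1 and 192, 181 and 33.8 TPM with siCNTL (-3.46 ± 0.175, adjusted p = 4.79e-08). PHACTR1, a regulator of protein phosphatase 1 and actin, was at 20.3, 19.6 and 4.54 TPM with siSOX10_1 and 144, 142 and 150 TPM with siCNTL (-3.44 ± 0.448, adjusted p = 6.80e-04). The groups did not overlap for any of the 10, but the rule that picked these genes favours such separation. Batch 3 had the lowest siSOX10_1 value for all 10. The batch 3 siCNTL library was also the lowest of its group for all but PHACTR1 and CAPN3, though only slightly for HPGD.

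**Figure D2:**
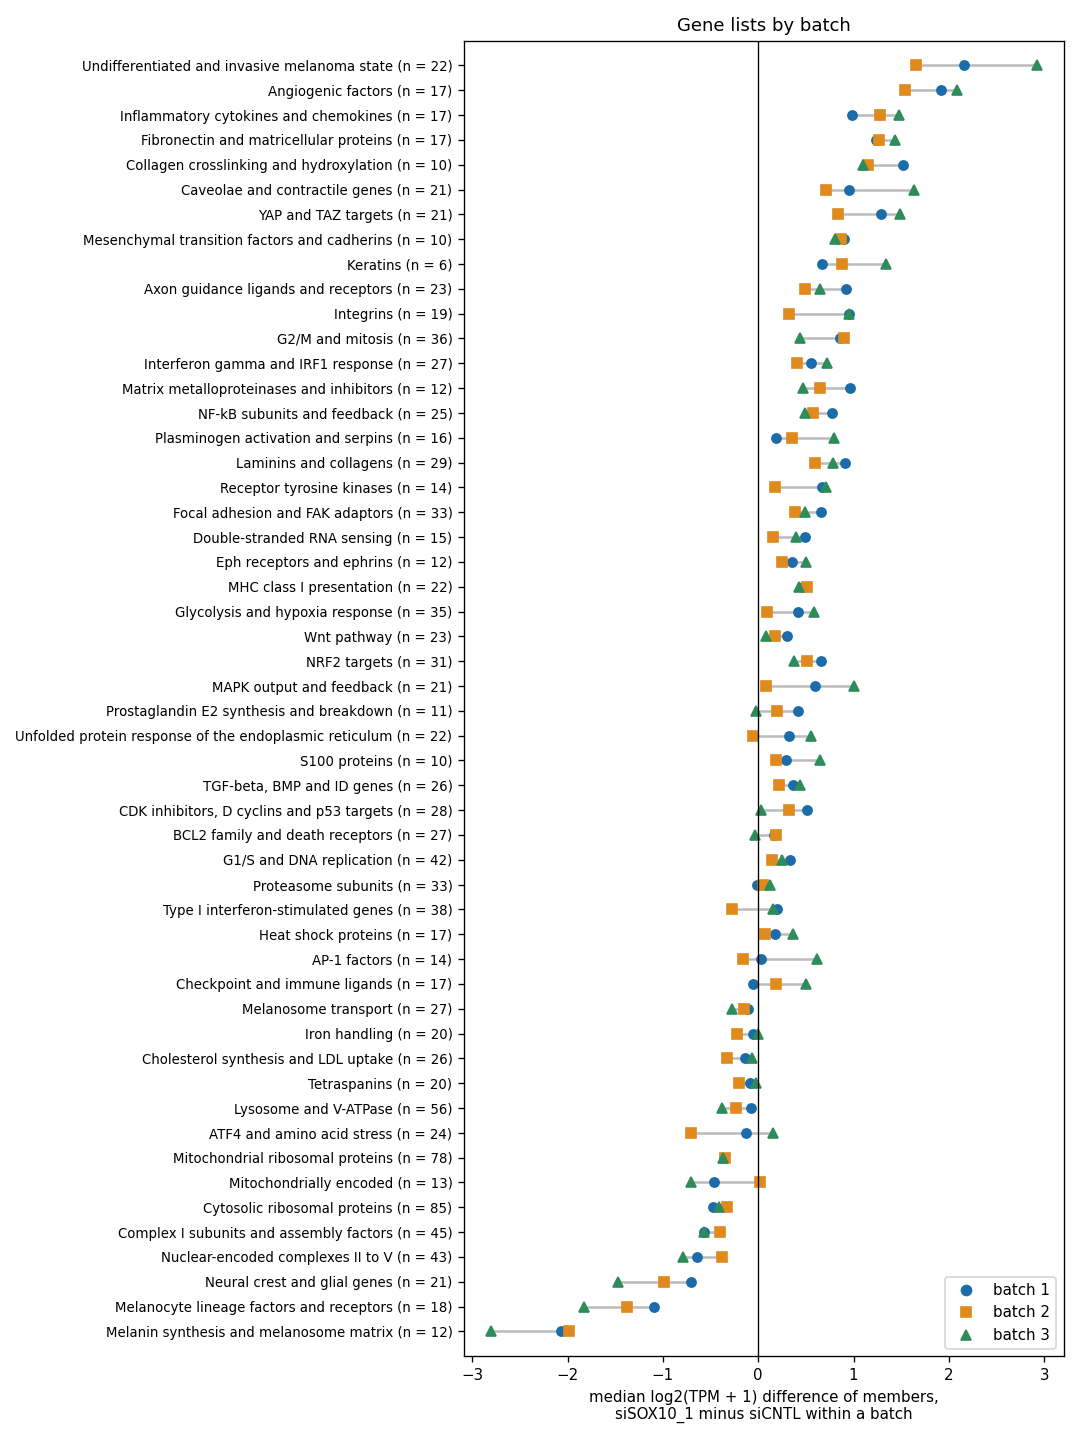
Median over the tested members of each gene list (n in brackets) of the log2(TPM + 1) difference, siSOX10_1 minus siCNTL, within batches 1, 2 and 3. The pigment and lineage lists lie left of 0 and the invasive, angiogenic and matrix lists right of 0 in all 3 batches. The amino acid stress, unfolded protein, type I interferon, AP-1 and mitochondrially encoded lists are among those that change sign between batches.

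**Figure D3:**
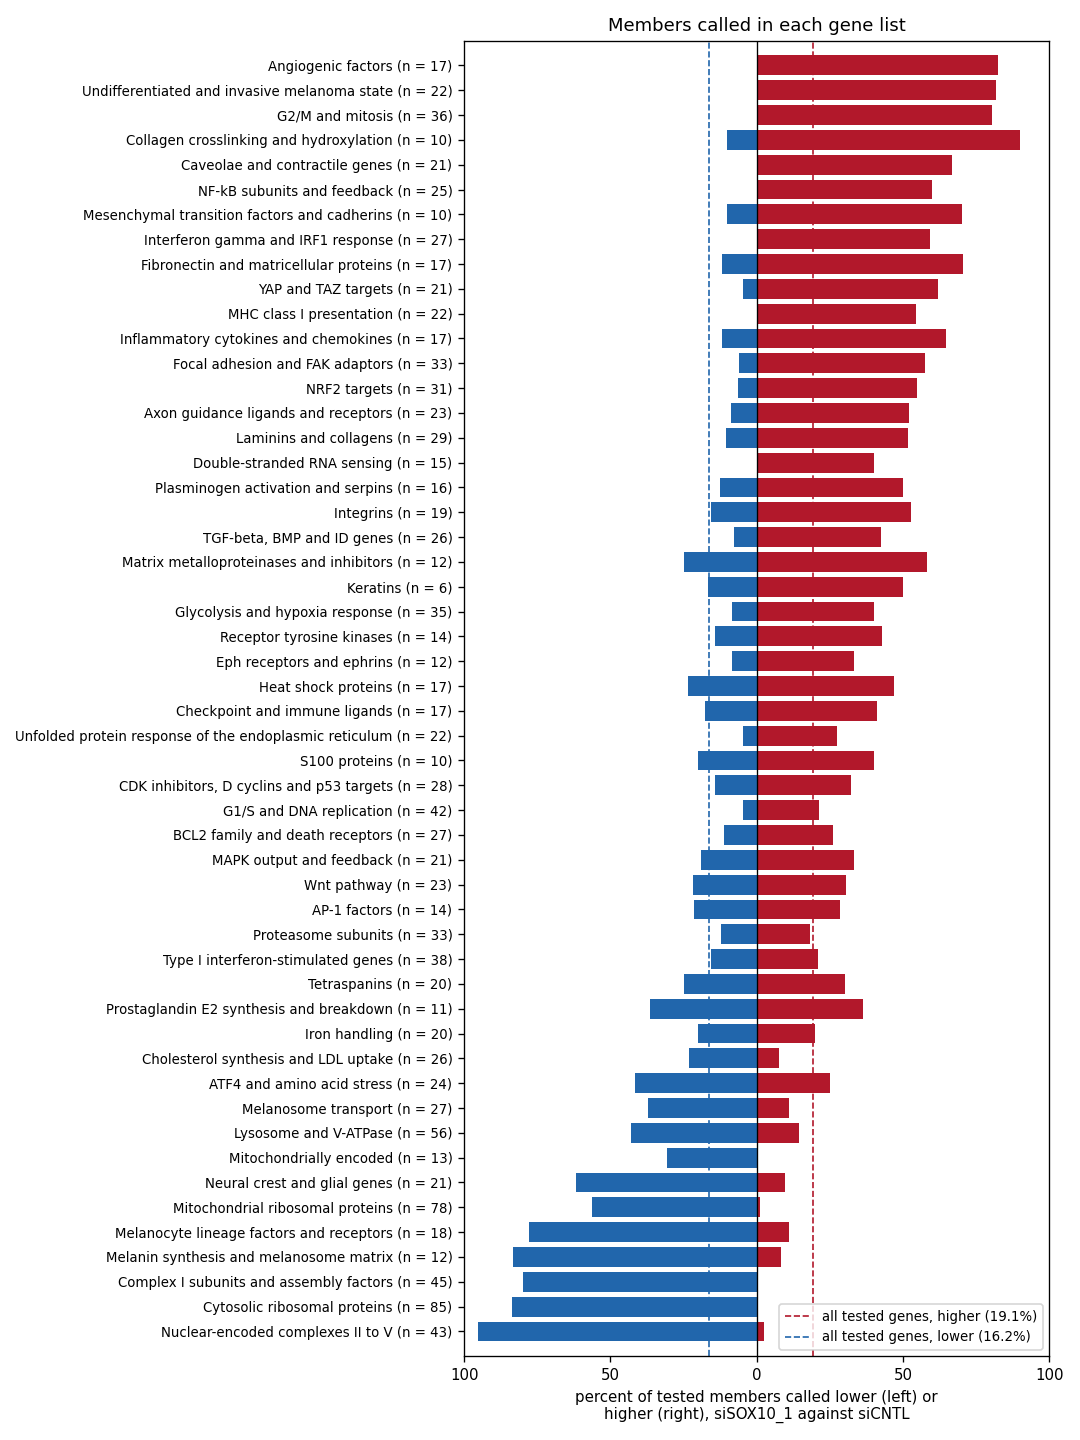
Percent of the tested members of each gene list called lower (bars to the left) or higher (bars to the right) with siSOX10_1 against siCNTL. Dashed lines mark the shares over all tested genes, 19.1% higher and 16.2% lower, which the respiratory chain, ribosomal and pigment lists exceed on the left and the angiogenic, invasive and G2/M lists on the right.

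Functions are described below by lists of genes, each with its count of members called and its median, to be read against 19.1% higher, 16.2% lower and a median of 0.03 over all tested genes. Of 12 tested genes of melanin synthesis and the melanosome matrix, 10 fell and 1 rose, with a median of -2.50 and batch medians of -2.07, -1.98 and -2.80. TYR, the rate-limiting enzyme of melanin synthesis, was at 249, 243 and 44.2 TPM with siSOX10_1 and 1091, 1159 and 965 TPM with siCNTL (-2.93 ± 0.580, adjusted p = 0.00865). PMEL, which forms the fibrils of the melanosome, was at 930, 882 and 89.6 TPM with siSOX10_1 and 3963, 4187 and 1825 TPM with siCNTL (-2.89 ± 0.602, adjusted p = 0.0110). SLC24A5, an ion exchanger of pigment organelles, was at 7.93, 9.91 and 2.22 TPM with siSOX10_1 and 84.5, 74.3 and 31.9 TPM with siCNTL (-3.13 ± 0.186). The groups did not overlap for these 3 genes or for MLANA, a melanosomal antigen that fell by 2.57, 2.55 and 4.58 in batches 1, 2 and 3. SLC7A11, the cystine transporter that feeds pheomelanin and glutathione synthesis, was the member that rose (1.04). The fall was called for 6 members without batch 1, 7 without batch 2 and 10 without batch 3.

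Lineage genes followed the same direction. Of 18 tested factors and receptors of the melanocyte lineage, 14 fell and 2 rose (median -1.50), and in the list of neural crest and glia 13 of 21 fell and 2 rose (median -1.14). TRPM1, an ion channel named after its loss in melanoma, was at 23.4, 22.9 and 4.40 TPM with siSOX10_1 and 185, 180 and 131 TPM with siCNTL (-3.49 ± 0.481). RXRG, a retinoid receptor, was at 6.70, 7.86 and 1.69 TPM with siSOX10_1 and 40.0, 48.5 and 39.1 TPM with siCNTL (-2.93 ± 0.290). S100B, a calcium-binding marker of melanocytes and glia, was at 238, 236 and 96.4 TPM with siSOX10_1 and 1084, 970 and 623 TPM with siCNTL (-2.30 ± 0.196). None of these overlapped between groups. The members that rose were the neural crest factors TFAP2A (1.66) and PAX3 (0.73), the neurotrophin receptor NGFR (1.36) and the adhesion molecule L1CAM (2.01). All 3 batch medians were negative, from -0.70 in batch 1 to -1.47 in batch 3 for the neural crest and glial list and from -1.09 to -1.83 for the lineage list.

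The machinery that moves melanosomes changed less evenly, with 10 of 27 members lower, 3 higher and a median of -0.19. The small GTPases RAB38 and RAB32, which deliver pigment enzymes, were among those that fell. RAB32 was at 121, 116 and 79.0 TPM with siSOX10_1 and 473, 395 and 503 TPM with siCNTL (-2.12 ± 0.147, adjusted p = 8.64e-07), with no overlap. RAB27A, which tethers melanosomes to the cortex, fell by 1.42, 1.44 and 1.67, while its linker MLPH rose by 0.80, 0.39 and 1.16. The higher count of 3 shrank to 1 without siCNTL replicate 1, siSOX10_1 replicate 2 or siSOX10_1 replicate 3. It was 0 without batch 1 and 1 without batch 2.

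Genes of the undifferentiated and invasive melanoma state rose: 18 of 22 rose and 0 fell, with a median of 2.36 and batch medians of 2.16, 1.66 and 2.92. CCN1, a matricellular YAP target, was at 71.6, 69.8 and 230 TPM with siSOX10_1 and 7.84, 5.86 and 5.57 TPM with siCNTL (3.85 ± 0.482, adjusted p = 4.96e-04). LOXL2, a collagen-crosslinking oxidase, was at 262, 250 and 260 TPM with siSOX10_1 and 19.5, 24.9 and 24.6 TPM with siCNTL (3.44 ± 0.156, adjusted p = 1.72e-08). Neither overlapped, and CCN1 was highest in batch 3 whereas LOXL2 was level across batches. The count that rose was 18 in every fit without 1 library, and 17 to 18 without any 1 batch, and 2 fell without siSOX10_1 replicate 3. Among 10 mesenchymal transition factors and cadherins 7 rose and 1 fell (median 0.93). N-cadherin (CDH2) rose by 2.64, 1.84 and 2.92 and vimentin (VIM) by 1.17, 0.90 and 1.59, while SNAI2, a transition factor that melanocytes also express, fell by 1.02, 1.49 and 2.12.

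Adhesion to the matrix was the next group. Of 19 integrin genes 10 rose and 3 fell (median 0.69, batch medians 0.95, 0.32 and 0.95). ITGA1, a collagen-binding alpha chain, was higher by 5.19, 5.05 and 5.51 in batches 1, 2 and 3, with 4.64, 5.29 and 3.75 TPM in the siCNTL libraries (5.25 ± 0.198, adjusted p = 3.97e-09). ITGA11, a fibrillar collagen receptor chain, was at 30.9, 32.4 and 37.9 TPM with siSOX10_1 and 0.775, 0.222 and 0.00400 TPM with siCNTL (4.74 ± 0.288). ITGA5, the fibronectin receptor chain, was at 191, 187 and 311 TPM with siSOX10_1 and 24.0, 36.3 and 37.6 TPM with siCNTL (2.76 ± 0.166). No overlap was seen for these 3. ITGB3, the beta chain of the vitronectin receptor, fell by 0.44, 0.83 and 1.29. The other members that fell, ITGAE and ITGB8, lost their call without siSOX10_1 replicate 1, at an adjusted p of 0.0529 and 0.052.

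Genes of focal adhesions and adaptors of the focal adhesion kinase rose in 19 of 33 cases and fell in 2 (median 0.53). Talin (TLN1), which links integrins to actin, was at 95.7, 92.9 and 83.0 TPM with siSOX10_1 and 24.5, 26.8 and 27.4 TPM with siCNTL (1.75 ± 0.121, adjusted p = 6.94e-07). The filamin FLNA, which crosslinks actin, also rose (1.52). The 2 members that fell were the adaptor NEDD9, by 0.86, 1.26 and 1.94, and the actin elongation factor ENAH, by 0.48, 0.99 and 1.11. Without batch 1, 8 members of the list rose. Of 12 Eph receptors and ephrins 4 rose (EPHA2, EFNB2, EPHB3 and EFNB1) and 1 fell (EFNA3). EFNA3 lost its call without replicate 2 or 3 of either group, with an adjusted p of up to 0.122. Of 20 tetraspanins, membrane organizers, 6 rose and 5 fell. CD82, known as a suppressor of metastasis, was at 290, 287 and 505 TPM with siSOX10_1 and 57.8, 81.3 and 94.5 TPM with siCNTL (2.17), and CD63, a marker of late endosomes and melanosomes, was at 1845, 1777 and 1543 TPM with siSOX10_1 and 4071, 3965 and 3689 TPM with siCNTL (-1.19).

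Transcripts of matrix components were read next. Among 29 laminin and collagen genes 15 rose, 3 fell and 11 were not called (median 0.59). Among 17 fibronectin and matricellular genes 12 rose and 2 fell (median 1.33), and among 10 genes of collagen crosslinking and hydroxylation 9 rose and 1 fell (median 1.19). LAMB3, a chain of an epithelial laminin, was at 32.4, 26.4 and 33.0 TPM with siSOX10_1 and 0.985, 2.05 and 1.31 TPM with siCNTL (3.71 ± 0.243). Fibronectin (FN1) was at 1411, 1399 and 909 TPM with siSOX10_1 and 150, 169 and 121 TPM with siCNTL (3.05 ± 0.145, adjusted p = 4.58e-08). TGM2, a transglutaminase that crosslinks matrix proteins, was at 124, 111 and 124 TPM with siSOX10_1 and 2.53, 4.81 and 2.88 TPM with siCNTL (4.81 ± 0.212). No library of one group reached the other for these. Collagen VI chains rose most in batch 3, by 3.98 for COL6A2 and 2.86 for COL6A1, against 2.61 and 1.91 in batch 1. The members that fell included LAMA4, a laminin chain (-2.08), the adhesive glycoprotein SPP1 (-1.25), the elastic fibre protein FBLN5 (-1.41) and the lysyl hydroxylase PLOD3 (-0.67). For SPP1 the libraries overlapped, at 194, 210 and 73.9 TPM with siSOX10_1 and 490, 469 and 180 TPM with siCNTL, although every batch was lower with siSOX10_1. The laminin and collagen count that fell was 1 without replicate 3 of either group.

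Matrix proteolysis was mixed in its parts. Of 12 matrix metalloproteinases and their inhibitors 7 rose and 3 fell (median 0.63). MMP9, a gelatinase, was at 57.0, 52.5 and 80.9 TPM with siSOX10_1 and at 0, 0 and 0.385 TPM with siCNTL (5.83 ± 0.224, adjusted p = 4.60e-09). MMP1, an interstitial collagenase, was at 943, 932 and 621 TPM with siSOX10_1 and 84.1, 68.1 and 37.8 TPM with siCNTL (3.74 ± 0.144). The inhibitor TIMP1 was at 2347, 2167 and 1996 TPM with siSOX10_1 and 398, 407 and 358 TPM with siCNTL (2.48 ± 0.0852). No overlap was seen in these, and TIMP2, another inhibitor, fell by 1.07, 0.82 and 1.37. Of 16 genes of plasminogen activation and serpins 8 rose and 2 fell (median 0.59). The urokinase receptor PLAUR rose by 3.07, 2.98 and 4.19, while SERPINF1, an antiangiogenic serpin, fell by 2.05, 2.22 and 3.20. The second that fell, SERPINA3, lost its call without siCNTL replicate 2 or 3 or any 1 siSOX10_1 library, with an adjusted p of up to 0.118.

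Signalling outputs tied to this state were read next. Of 21 YAP and TAZ targets, genes of the Hippo pathway's transcriptional arm, 13 rose and 1 fell (median 0.98, batch medians 1.29, 0.84 and 1.49). NT5E, which makes extracellular adenosine, was at 81.1, 80.7 and 149 TPM with siSOX10_1 and 11.2, 13.0 and 10.3 TPM with siCNTL (3.01 ± 0.234), without overlap. Of 26 genes of the TGF-beta and BMP pathways and the ID family 11 rose and 2 fell (median 0.26). ID1, an inhibitor of helix-loop-helix factors, was at 276, 236 and 244 TPM with siSOX10_1 and 8.11, 8.85 and 9.17 TPM with siCNTL (4.70 ± 0.155, adjusted p = 1.62e-09). SMAD3, which carries the TGF-beta signal, was at 38.2, 38.0 and 39.6 TPM with siSOX10_1 and 3.99, 3.54 and 3.15 TPM with siCNTL (3.12 ± 0.159). Both were level across batches. The 2 that fell were the BMP-responsive SMAD9 (-1.02) and the decoy receptor BAMBI (-1.08), whose call was lost without siCNTL replicate 3 or any 1 siSOX10_1 library, with an adjusted p of up to 0.0951.

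Of 23 Wnt pathway genes 7 rose and 5 fell (median 0.43). The ligand WNT5B rose by 3.82, 3.57 and 4.31 and the antagonist DKK1 by 2.95, 2.37 and 5.00. The members that fell were DKK2, WNT10B, LEF1, TCF7 and CTNNB1, which encode an antagonist, a ligand, a pair of nuclear effectors and beta-catenin. CTNNB1 was at 674, 633 and 483 TPM with siSOX10_1 and 1322, 1576 and 1378 TPM with siCNTL (-1.27 ± 0.137, adjusted p = 3.08e-05), without overlap. Of 14 receptor tyrosine kinases 6 rose and 2 fell (median 0.53). AXL, a receptor of the invasive melanoma state, was at 24.6, 24.7 and 46.9 TPM with siSOX10_1 and 4.71, 6.86 and 4.79 TPM with siCNTL (2.31 ± 0.277), and ERBB3, the neuregulin receptor and a known SOX10 target, was at 24.4, 28.2 and 12.4 TPM with siSOX10_1 and 57.3, 74.2 and 36.0 TPM with siCNTL (-1.34 ± 0.226). Both pairs of groups were apart.

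Of 21 genes of MAPK output and feedback 7 rose and 4 fell (median 0.34), and the batch medians spread from 0.08 in batch 2 to 1.01 in batch 3. FOSL1, an AP-1 subunit stabilised by ERK, was at 291, 291 and 541 TPM with siSOX10_1 and 35.2, 39.9 and 24.3 TPM with siCNTL (3.42 ± 0.347, adjusted p = 1.51e-04), while ETV4, ETV5, MYC and FOS fell by 0.68 to 1.21 on average over the batches. Of 14 AP-1 factors 4 rose and 3 fell (median 0.07). The members of the FOS family moved in opposite directions, with FOSL1 and FOSL2 (1.81) higher and FOS (-1.21) lower in all 3 batches.

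Inflammatory transcripts followed. Of 17 tested cytokines and chemokines 11 rose and 2 fell, with a median of 1.34 and batch medians of 0.98, 1.28 and 1.48. IL1B was at 201, 198 and 259 TPM with siSOX10_1 and 1.09, 0.126 and 0.673 TPM with siCNTL (7.11 ± 0.193, adjusted p = 2.33e-10). CCL5, a chemokine for T cells, was at 63.6, 71.9 and 163 TPM with siSOX10_1 and 0.240, 0.415 and 0.0440 TPM with siCNTL (6.23 ± 0.313, adjusted p = 6.80e-08). CXCL8, a chemokine for neutrophils, was at 362, 328 and 564 TPM with siSOX10_1 and 25.5, 25.2 and 8.70 TPM with siCNTL (4.43 ± 0.485, adjusted p = 4.51e-04). No overlap was seen, and CCL5 and CXCL8 differed most in batch 3. The mucosal chemokine CCL28 fell by 1.13, 1.24 and 1.12. The second that fell, CX3CL1, lost its call without any 1 library other than siSOX10_1 replicate 2, with an adjusted p of up to 0.201. At least 10 members rose without any 1 batch.

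Of 25 NF-kB subunits and feedback genes 15 rose and 0 fell (median 0.60). MAP3K14, the kinase of the non-canonical branch, was at 21.5, 19.4 and 14.9 TPM with siSOX10_1 and 1.84, 2.17 and 1.29 TPM with siCNTL (2.82 ± 0.226). NFKB2, a subunit of the same branch, was at 43.2, 36.3 and 36.2 TPM with siSOX10_1 and 11.0, 15.4 and 15.7 TPM with siCNTL (1.41 ± 0.165). Neither overlapped between groups. For prostaglandin E2, 4 of 11 genes of synthesis and breakdown rose and 4 fell. PTGES and the cyclooxygenase PTGS2 (1.71) rose, and HPGD, which breaks prostaglandin E2 down, was at 3.00, 3.67 and 0.672 TPM with siSOX10_1 and 30.3, 29.2 and 28.9 TPM with siCNTL (-3.28 ± 0.299). The phospholipase PLA2G4A (-0.74), which frees the precursor, and the prostacyclin synthase PTGIS (-1.36) fell. The transporter ABCC4 also fell, and its call was lost without siSOX10_1 replicate 1 (adjusted p = 0.0667).

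The interferon gamma and IRF1 response held 16 genes that rose and 0 that fell of 27 (median 0.64, batch medians 0.55, 0.41 and 0.72). VCAM1, an adhesion molecule for leukocytes, was at 14.3, 12.7 and 25.9 TPM with siSOX10_1 and at 0, 0 and 0.187 TPM with siCNTL (4.07 ± 0.264). TNFSF10, the death ligand TRAIL, was at 20.2, 28.0 and 17.0 TPM with siSOX10_1 and 2.70, 5.26 and 2.90 TPM with siCNTL (2.31 ± 0.362). Neither overlapped between groups. Type I interferon-stimulated genes showed no common direction. Of 38 tested, 8 rose and 6 fell, the median was 0.08, and the batch medians were 0.20, -0.27 and 0.16. BST2, which tethers virions, rose by 3.20, 3.05 and 3.55, at 496, 459 and 340 TPM with siSOX10_1 and 53.1, 54.6 and 28.1 TPM with siCNTL. These counts were 5 to 8 higher and 3 to 7 lower in the fits without 1 library, with the fewest higher without siCNTL replicate 1 and the fewest lower without siSOX10_1 replicate 3.

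Of 15 genes of double-stranded RNA sensing 6 rose and 0 fell (median 0.47), among them the kinase EIF2AK2, by 0.78, 0.68 and 0.35. Only 3 rose without siCNTL replicate 1 or any 1 siSOX10_1 library, and 0 rose without batch 1. Class I antigen presentation rose in 12 of 22 genes and fell in 0 (median 0.45, batch medians 0.47, 0.51 and 0.43). ERAP1 and ERAP2 trim peptides for loading. ERAP1 was at 28.7, 34.5 and 35.4 TPM with siSOX10_1 and 8.89, 12.3 and 8.95 TPM with siCNTL (1.62 ± 0.167), and ERAP2 at 69.3, 70.0 and 73.2 TPM with siSOX10_1 and 30.0, 33.6 and 32.2 TPM with siCNTL (1.13 ± 0.149). Neither overlapped between groups. HLA-B is one of several near-identical genes, so its value is uncertain. It was at 429, 729 and 410 TPM with siSOX10_1 and 128, 125 and 263 TPM with siCNTL, and its call was lost without siSOX10_1 replicate 1 (adjusted p = 0.0503). Of 17 checkpoint and immune ligands 7 rose and 3 fell (median -0.06). NECTIN2, a ligand of TIGIT, rose by 1.94, 1.71 and 1.68. The galectin LGALS3 fell by 2.30, 2.21 and 2.35 and TNFRSF14, a ligand of BTLA, by 1.78, 1.98 and 2.66.

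Of 36 genes of G2/M and mitosis 29 rose and 0 fell, with a median of 0.67. The median was 0.86 and 0.90 in batches 1 and 2 and 0.44 in batch 3, and 31 members were higher in all 3 batches. MKI67, the proliferation antigen, was at 38.9, 26.2 and 34.8 TPM with siSOX10_1 and 10.3, 9.25 and 12.8 TPM with siCNTL (1.53 ± 0.154, adjusted p = 1.43e-05). TOP2A, the topoisomerase that untangles chromosomes, was at 132, 130 and 135 TPM with siSOX10_1 and 37.3, 45.2 and 64.1 TPM with siCNTL (1.45 ± 0.148, adjusted p = 1.50e-05). For TOP2A the siSOX10_1 libraries were nearly equal and the batch 3 siCNTL library was the highest of its group. Without a batch, 22 rose (batch 1), 24 (batch 2) or 33 (batch 3). Genes of G1/S and DNA replication moved less, with 9 of 42 higher, 2 lower and a median of 0.17. Their share higher was near the 19.1% over all tested genes, and their share lower was below the 16.2%. RRM2, a ribonucleotide reductase subunit, rose by 2.10, 1.35 and 1.31 and the thymidine kinase TK1 by 1.05, 1.12 and 0.66. The 2 that fell were GINS2 and PRIM1. GINS2 lost its call without replicate 1 or 2 of either group (adjusted p up to 0.151) and PRIM1 without siCNTL replicate 1 or siSOX10_1 replicate 3 (up to 0.0653). PRIM1 was at 27.4, 35.2 and 15.4 TPM with siSOX10_1 and 48.5, 38.7 and 29.3 TPM with siCNTL, so the groups overlapped.

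Of 28 CDK inhibitors, D cyclins and p53 targets 9 rose and 4 fell (median 0.18). CDKN2C, an inhibitor of CDK4 and CDK6, was at 48.1, 45.1 and 64.1 TPM with siSOX10_1 and 5.90, 8.04 and 16.0 TPM with siCNTL (2.37 ± 0.217), and cyclin D1 (CCND1), the partner of those kinases, was at 445, 428 and 648 TPM with siSOX10_1 and 136, 164 and 182 TPM with siCNTL (1.64 ± 0.171). Both rose without overlap. The inhibitor CDKN1C (-1.37) and the p53 target TIGAR (-1.64) fell. Of 27 genes of the BCL2 family and death receptors 7 rose and 3 fell (median 0.18), with 4 that rose in the fit without siSOX10_1 replicate 2. These counts are not far from the 19.1% higher and 16.2% lower over all tested genes. BCL2A1, a survival gene driven by MITF in melanoma, was at 46.3, 43.6 and 26.4 TPM with siSOX10_1 and 245, 197 and 160 TPM with siCNTL (-2.36 ± 0.196), whereas MCL1, another survival gene, rose by 1.22, 0.66 and 1.58.

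NRF2 targets, the genes of the response to oxidants, rose in 17 of 31 cases and fell in 2 (median 0.41, batch medians 0.66, 0.51 and 0.38). NQO1, a quinone reductase, was at 11167, 11028 and 10129 TPM with siSOX10_1 and 2774, 2745 and 2783 TPM with siCNTL (1.96 ± 0.260, adjusted p = 8.33e-04). TXNRD1, thioredoxin reductase, was at 869, 920 and 904 TPM with siSOX10_1 and 243, 288 and 379 TPM with siCNTL (1.59 ± 0.171). AKR1C3, an aldo-keto reductase with near-identical relatives whose reads may be shared, was at 18.7, 14.5 and 24.6 TPM with siSOX10_1 and 0.759, 0.0720 and 0.620 TPM with siCNTL (3.78 ± 0.254). The groups did not overlap for these 3, and NQO1 differed least between batches. The carbonyl reductases CBR1 (-0.60) and CBR3 (-0.91) were the 2 that fell. Iron handling held 4 of 20 genes that rose and 4 that fell (median -0.20), near the 19.1% and 16.2% over all tested genes. FTL, which has many pseudogenes that can take its reads, was at 38904, 35430 and 30299 TPM with siSOX10_1 and 11380, 12188 and 12137 TPM with siCNTL (1.54 ± 0.199). Transferrin (TF) was at 29.7, 33.9 and 5.29 TPM with siSOX10_1 and 89.9, 123 and 119 TPM with siCNTL (-2.55 ± 0.542). Only 2 iron genes rose without siSOX10_1 replicate 3.

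Several stress and metabolic lists differed between batches. Genes of ATF4 and amino acid stress fell in 10 of 24 cases and rose in 6, with batch medians of -0.13, -0.71 and 0.15. The members that fell most did so in every batch: PSAT1, of serine synthesis, was at 63.8, 67.0 and 32.7 TPM with siSOX10_1 and 252, 297 and 158 TPM with siCNTL (-2.11 ± 0.149), and the amino acid transporters SLC1A4 (-1.67), SLC3A2 (-1.64) and SLC7A5 (-1.77) fell with it. Genes of the unfolded protein response rose in 6 of 22 cases and fell in 1, with batch medians of 0.32, -0.05 and 0.55, and 15 of the 22 changed direction between batches. Without batch 1, 0 rose and 0 fell, and without batch 3, 3 rose and 7 fell. The chaperone cofactor SDF2L1 shows the spread, at 203, 164 and 169 TPM with siSOX10_1 and 392, 418 and 158 TPM with siCNTL, with batch differences of -0.95, -1.34 and 0.09. Its call was lost without replicate 1 or 2 of either group, with an adjusted p of up to 0.0858. In the fits without 1 library, 2 to 9 genes of this list rose and 0 to 4 fell. The fewest rose without siCNTL replicate 1 or without siSOX10_1 replicate 1 or 3, and without siCNTL replicate 3, 3 rose and 4 fell. Without siSOX10_1 replicate 3, 2 fell.

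Of 35 genes of glycolysis and the hypoxia response 14 rose and 3 fell, with batch medians of 0.42, 0.09 and 0.59. The carbonic anhydrase CA9, a hypoxia marker, was at 54.6, 54.2 and 102 TPM with siSOX10_1 and 4.68, 5.11 and 5.06 TPM with siCNTL (3.52 ± 0.286), without overlap, and the growth factor VEGFA rose by 0.76, 0.78 and 2.09. Without batch 3, 14 rose and 10 fell. Of 17 heat shock proteins 8 rose and 4 fell (median 0.08), but 1 fell without siSOX10_1 replicate 1 and 2 fell without replicate 2 or 3 of either group. HSPA1A and HSPA1B, whose sequences are nearly identical, so that reads may be shared, rose by 1.13 and 0.78, and the mitochondrial cochaperone HSPE1 fell by 0.45. Of 26 genes of cholesterol synthesis and LDL uptake 6 fell and 2 rose (median -0.20), and without batch 3 10 fell and 3 rose. Since 16.2% fell over all tested genes, 6 of 26 is not far above that share. ACAT2, an early enzyme of the pathway, was at 61.3, 58.7 and 64.0 TPM with siSOX10_1 and 113, 105 and 106 TPM with siCNTL (-0.80 ± 0.0953), and SCAP, the escort of its transcription factor, rose (0.73). The second that rose, SQLE, lost its call without siSOX10_1 replicate 1 (adjusted p = 0.0537).

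In the respiratory chain, of 45 complex I subunits and assembly factors 36 fell and 0 rose (median -0.55), and of 43 nuclear-encoded genes of complexes II to V 41 fell and 1 rose (median -0.65). All members of the second list but SDHA were lower in all 3 batches, and its batch medians were -0.64, -0.38 and -0.79. ATP5PO, a stalk subunit of ATP synthase, was at 614, 675 and 655 TPM with siSOX10_1 and 1530, 1282 and 1570 TPM with siCNTL (-1.17 ± 0.0882, adjusted p = 1.35e-06). NDUFB9, a complex I subunit, was at 546, 523 and 555 TPM with siSOX10_1 and 1239, 1086 and 1096 TPM with siCNTL (-1.07 ± 0.0742, adjusted p = 7.07e-07). SDHA, the flavoprotein of complex II, was at 522, 525 and 499 TPM with siSOX10_1 and 323, 369 and 420 TPM with siCNTL (0.48 ± 0.0990). No overlap was seen in these 3. Without a batch, complexes II to V kept 33 (batch 1), 38 (batch 2) and 37 (batch 3) genes called lower.

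The 13 mitochondrially encoded genes were less even between batches, with batch medians of -0.46, 0.02 and -0.70. Of these 4 fell and 0 rose. MT-CO3, a core subunit of complex IV, was at 1660, 1859 and 1454 TPM with siSOX10_1 and 2957, 2635 and 2376 TPM with siCNTL (-0.68 ± 0.126), and MT-CYB of complex III fell by 1.02, 0.80 and 0.70. Only 2 genes of this list fell without siCNTL replicate 1, siSOX10_1 replicate 1 or siSOX10_1 replicate 3. Mitochondrial ribosomal proteins fell in 44 of 78 cases and rose in 1 (median -0.36, batch medians -0.36, -0.35 and -0.37). MRPL15 was at 116, 114 and 100 TPM with siSOX10_1 and 307, 284 and 264 TPM with siCNTL (-1.36 ± 0.0812), without overlap. The member that rose, MRPL18 (0.35), lost its call without any 1 library other than siCNTL replicate 2, with an adjusted p of up to 0.0997.

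Cytosolic ribosomal proteins fell in 71 of 85 cases and rose in 0 (median -0.44, batch medians -0.47, -0.33 and -0.41), and 76 were lower in all 3 batches. RPS24 was at 518, 506 and 446 TPM with siSOX10_1 and 990, 902 and 825 TPM with siCNTL (-0.88 ± 0.0726, adjusted p = 2.63e-06). RPS16 was at 696, 697 and 669 TPM with siSOX10_1 and 1259, 1113 and 1114 TPM with siCNTL (-0.76 ± 0.0894). The groups did not overlap, although ribosomal protein genes have many processed pseudogenes that can share their reads. Without batch 1, 41 fell. Proteasome subunits did not move together, with 6 of 33 higher and 4 lower (median 0.10). Only 2 rose without siCNTL replicate 3 or siSOX10_1 replicate 1. The counts that rose were 3 without siCNTL replicate 1 or siSOX10_1 replicate 2 or 3, and 0 without batch 1. Genes of the lysosome and its proton pump fell in 24 of 56 cases and rose in 8 (median -0.28, batch medians -0.08, -0.23 and -0.38). ASAH1, acid ceramidase, was at 308, 281 and 134 TPM with siSOX10_1 and 838, 819 and 591 TPM with siCNTL (-1.70 ± 0.181), and TFE3, a lysosomal transcription factor related to MITF, was at 21.4, 20.6 and 23.1 TPM with siSOX10_1 and 3.61, 4.83 and 7.04 TPM with siCNTL (1.92 ± 0.177).

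Secreted, structural and guidance genes completed the picture. Of 17 angiogenic factors 14 rose and 0 fell (median 1.91). NRP1, a coreceptor for VEGF and semaphorins, was at 147, 134 and 175 TPM with siSOX10_1 and 5.34, 5.67 and 3.92 TPM with siCNTL (4.68 ± 0.167, adjusted p = 2.62e-09). Of 21 genes of caveolae and contraction 14 rose and 0 fell (median 1.05). Caveolin (CAV1) was at 108, 111 and 225 TPM with siSOX10_1 and 19.8, 16.7 and 18.5 TPM with siCNTL (2.86 ± 0.253). Neither overlapped, and CAV1 was highest in batch 3. Of 23 axon guidance ligands and receptors 12 rose and 2 fell (median 0.76), with SEMA3A and PLXNB2, a semaphorin and a receptor, up by 2.29 and 2.23, and ROBO2 and SEMA6A down by 1.60 and 1.44 on average over the batches. Of 6 keratins tested 3 rose and 1 fell. KRT81, a hair keratin whose sequence is close to that of KRT86, was at 46.4, 49.9 and 68.3 TPM with siSOX10_1 and 0.109, 0.0600 and 0 TPM with siCNTL. KRT86 and KRT8 also rose, and KRT27 fell. Of 10 S100 proteins 4 rose and 2 fell (S100B and S100A1), and S100A1 lost its call without siCNTL replicate 3 or siSOX10_1 replicate 2, with an adjusted p of up to 0.0538. S100A6 was at 1671, 1664 and 2526 TPM with siSOX10_1 and 1146, 1053 and 1057 TPM with siCNTL (0.82 ± 0.137).

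Markers of other cell types were checked as well. Of 10 leukocyte markers 0 passed the filter, and their summed level was 0.721 to 1.47 TPM with siSOX10_1 and 2.01 to 4.05 TPM with siCNTL, with PTPRC at no more than 0.0280 TPM with siSOX10_1. Of 10 epithelial markers 2 were tested, CLDN4 rose (1.56) and ESRP1 fell (-1.41), EPCAM was listed at 0 in all 3 siSOX10_1 libraries, and the summed level was 5.82 to 8.08 TPM with siSOX10_1 and 3.34 to 8.01 TPM with siCNTL. Of 8 endothelial markers 2 were tested and 0 called, and nearly all of the summed level (70.0 to 96.9 TPM with siSOX10_1 and 77.8 to 94.8 TPM with siCNTL) was EGFL7. Of 10 fibroblast markers 6 were tested, 4 rose (POSTN, COL1A1, FAP and THY1) and LUM fell, with a list median of 1.46. The number of these 10 markers with a mean of at least 1 TPM was 9 with siSOX10_1 and 3 with siCNTL. THY1 lost its call without any 1 library other than siCNTL replicate 2, with an adjusted p of up to 0.179. Their summed level was at most 174 TPM with siSOX10_1 and at least 178 TPM with siCNTL, most of it LUM, at 98.5, 111 and 150 TPM with siSOX10_1 and 186, 170 and 204 TPM with siCNTL. The LUM call was lost without batch 1 (adjusted p up to 0.104). COL3A1 was at 1.49, 0.742 and 0.891 TPM with siSOX10_1 and listed at 0 in all 3 siCNTL libraries, and COL1A2 was at or below 0.511 TPM in all 6. The part of these markers in the matrix results was not tested. COL1A1 was at 9.59, 10.3 and 8.14 TPM with siSOX10_1 and 0, 0.0960 and 0.0140 TPM with siCNTL (3.31 ± 0.218).

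Genes whose batch 3 difference lay farthest from both other batches were taken by a rule that used that distance, so their values describe and do not test it. With batch 3 above the others these were IER3, LRRC17, CXCL8, DKK1 and NNMT. NNMT, a nicotinamide methyltransferase, was at 124, 130 and 189 TPM with siSOX10_1 and 32.3, 31.0 and 10.4 TPM with siCNTL, with batch differences of 1.91, 2.03 and 4.06. IER3, an immediate early gene, was at 159, 152 and 227 TPM with siSOX10_1 and 61.7, 72.0 and 16.4 TPM with siCNTL. In both the batch 3 siCNTL library was the lowest of its group and the batch 3 siSOX10_1 library the highest.

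Genes with batch 3 below the others included FRG2DP, EGFL8, DCT and LHFPL3-AS1. DCT, an enzyme of eumelanin synthesis, was at 1215, 1203 and 144 TPM with siSOX10_1 and 3750, 4144 and 2830 TPM with siCNTL, with batch differences of -1.62, -1.78 and -4.29. Its batch 3 siSOX10_1 library was the low one. DCT lost its call without any 1 of the 6 libraries (adjusted p 0.058 to 0.134). EGFL8, which shares its place with the readthrough gene PPT2-EGFL8, lost it without siCNTL replicate 3 (0.0512), and LHFPL3-AS1 without siCNTL replicate 1 or 3 or siSOX10_1 replicate 2 or 3 (up to 0.109). SOX10 was lowest in the same library, and its part in these differences was not tested. Whether a batch departed from the others was not tested for any gene.

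**Figure D4:**
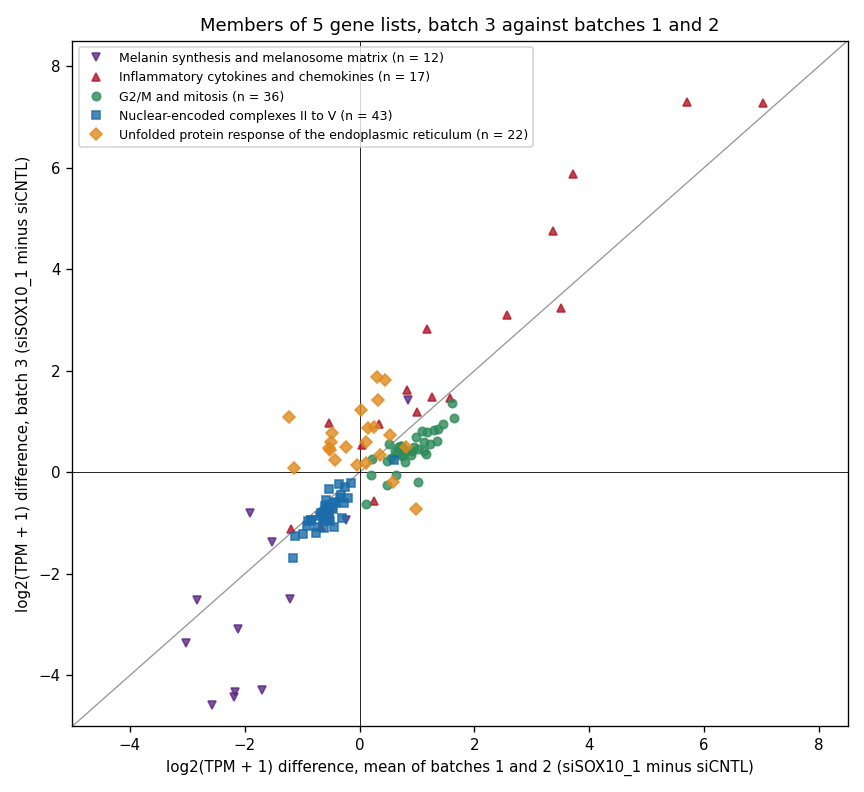
Log2(TPM + 1) difference, siSOX10_1 minus siCNTL, in batch 3 (vertical) against the mean of batches 1 and 2 (horizontal) for each tested member of 5 gene lists; the grey diagonal marks equal differences. Pigment genes reach -4.58 in batch 3, most mitotic and respiratory genes lie below the diagonal (mitotic genes mostly above 0, respiratory genes below 0), and most unfolded protein genes lie above the diagonal.

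The second SOX10 siRNA was used to see where siSOX10_1 stood apart. Between siSOX10_1 and siSOX10_2, limma called 155 genes higher (1.07%) and 286 lower (1.97%). Under median-of-ratios scaling these were 293 higher and 172 lower, so the balance depends on the scaling. The median difference over all genes was -0.066 in the TPM as deposited. Without any 1 library of either siRNA the counts were 38 to 99 higher and 63 to 126 lower, with the fewest without siSOX10_2 replicate 3. With batch 1 left out 2 were higher and 2 lower, and with batch 2 left out 0 and 7. In this comparison 0 of 12 pigment genes, 1 of 43 genes of complexes II to V and 1 of 36 G2/M genes were called. With only 1.07% and 1.97% called over all genes, such low counts do not set these lists apart.

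Called genes in it were counted by list. Of 31 NRF2 targets 10 were higher with siSOX10_1 than with siSOX10_2 and 0 lower (median 0.52), and of 17 cytokines and chemokines 8 were lower and 0 higher (median -1.18). SERPINB2, an inhibitor of plasminogen activators, was among 5 of 16 plasminogen and serpin genes that were lower with siSOX10_1, where 1 was higher (log2 difference -1.46, adjusted p = 0.00336). The SERPINB2 call was lost without batch 1 and without batch 2 (adjusted p up to 0.0949). NQO1 was at 11167, 11028 and 10129 TPM with siSOX10_1, and its difference from siSOX10_2 was 1.74 (adjusted p = 0.0175). FTL was 1.28 higher (adjusted p = 0.0165). Both calls were lost without any 1 siSOX10_1 library, with an adjusted p of up to 0.0794 for NQO1 and 0.0801 for FTL. IL1B was 1.57 lower with siSOX10_1 (adjusted p = 0.00237) and MMP1 1.05 lower (adjusted p = 0.00345), and both kept their call without any 1 library of either siRNA. Their calls were lost without batch 1 and without batch 2, where the adjusted p reached 0.0669 for IL1B and 0.0942 for MMP1.

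The 5 genes that were highest with siSOX10_1 relative to siSOX10_2 were SCG2, TXNIP, SCML1, NQO1 and A2M. SCG2, a granin of secretory vesicles, was at 56.3, 52.0 and 24.7 TPM with siSOX10_1 and 3.33, 3.82 and 0.629 TPM with siCNTL, and its difference from siSOX10_2 was 2.30 (adjusted p = 0.00336). That call was lost without batch 1 and without batch 2 (adjusted p up to 0.134). TXNIP, which inhibits thioredoxin and glucose uptake, was at 29.1, 37.1 and 452 TPM with siSOX10_1 and 5.19, 4.53 and 75.6 TPM with siCNTL. Its batch 3 libraries were high in both groups, so the groups overlapped while each batch was higher with siSOX10_1, by 2.28, 2.79 and 2.56. A2M, a protease trap, lost its call against siSOX10_2 without siSOX10_1 replicate 1 or 3 or siSOX10_2 replicate 2 or 3, with an adjusted p of up to 0.114.

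The 5 that were lowest with siSOX10_1 were C15orf48, LAT2, LINC00973, LINC02246 and SERPINB8. C15orf48, which encodes a mitochondrial protein related to a complex IV subunit and induced in inflammation, was at 20.5, 23.5 and 62.6 TPM with siSOX10_1 and 0.916, 0.114 and 0.176 TPM with siCNTL, and it was 2.80 lower than with siSOX10_2 (adjusted p = 0.00237). LAT2, an adaptor of immune receptor signalling, was at 4.53, 3.71 and 5.69 TPM with siSOX10_1 and 0.756, 0.900 and 0.878 TPM with siCNTL, and 2.51 lower than with siSOX10_2 (adjusted p = 7.54e-04). Against siSOX10_2, the C15orf48 call was lost without batch 1 and without batch 2 (adjusted p up to 0.072), and the LAT2 call without batch 1 (0.0651). Both genes rose against siCNTL without overlap, so the siRNAs differed in the size of the rise. SERPINB8 was not called against siCNTL, and its call against siSOX10_2 was lost without siSOX10_1 replicate 1 or 2 or siSOX10_2 replicate 3, with an adjusted p of up to 0.1.

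**Figure D5:**
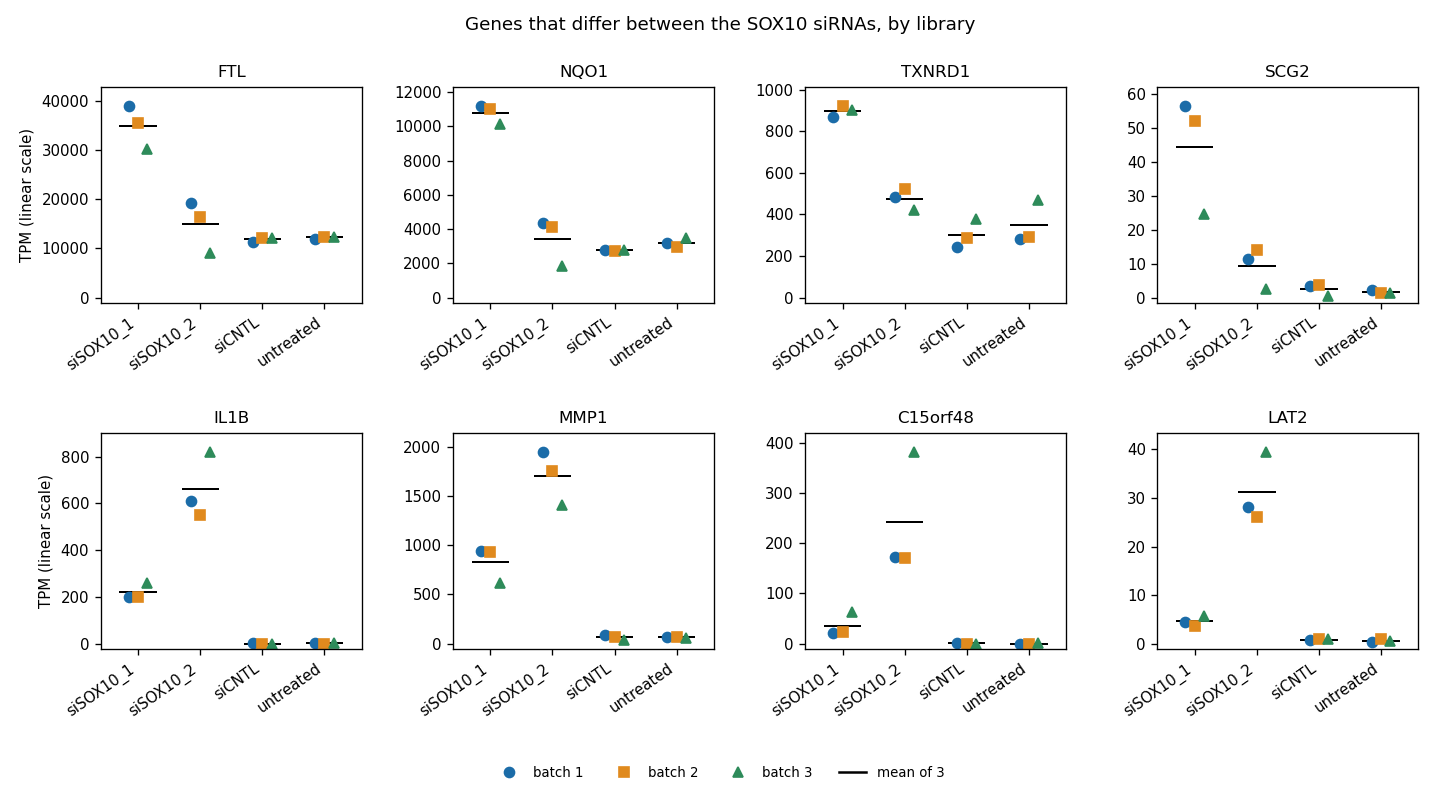
TPM (linear axes, 1 per gene) in each library of siSOX10_1, siSOX10_2, siCNTL and untreated cells for FTL, NQO1, TXNRD1, SCG2, IL1B, MMP1, C15orf48 and LAT2; markers show the batch and lines the mean of 3 libraries. The upper 4 genes are highest in all 3 siSOX10_1 libraries, and the lower 4 lie between the siSOX10_2 and the control libraries.

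The control siRNA was set against untreated cells as the background of transfection. Between siCNTL and untreated cells limma called 0 genes (0%) of 14508, and 901 genes (6.21%) had an unadjusted p under 0.05. Leaving out siCNTL replicate 2 gave 8 called genes, leaving out batch 2 gave 1 and leaving out batch 3 gave 29. With untreated cells in the place of siCNTL, 2853 genes were higher and 2373 lower with siSOX10_1, of which 2275 and 1925 were also called against siCNTL.

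Reactome sets carried by the deposited table gave a view not chosen gene by gene. Over 523 sets with 15 to 200 tested members, the largest excess of higher over lower members was in the set of interleukin 10 signaling, with 15 of 19 genes higher and 1 lower (median 1.34). Signaling of interleukins 4 and 13 followed with 28 of 39 higher and 3 lower. Next were non-integrin membrane interactions with matrix (18 of 26 higher, 2 lower), smooth muscle contraction (16 of 26, 0 lower), folding and peptide loading of class I MHC (9 of 15, 0 lower), collagen fibril assembly (15 of 25, 1 lower), nuclear events of NFE2L2 (9 of 15, 1 lower) and the non-canonical NF-kB pathway of TNFR2 (12 of 21, 1 lower). The largest excess of lower members was in ATP formation by chemiosmotic coupling, with 15 of 17 lower and 0 higher (batch medians -0.84, -0.47 and -0.92). The wider set of electron transport, ATP synthesis and uncoupling (82 of 121 lower), cristae formation (21 of 30), complex I biogenesis (38 of 57), respiratory electron transport (67 of 102), the set of the citric acid cycle and electron transport (96 of 163) and mitochondrial translation initiation (50 of 89) and termination (49 of 89) came next. These sets share many genes with each other and with the lists above.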

How the data were processed

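RNA was taken from A2058 cells grown in RPMI1640, and libraries were made with SMART-Seq v4 and Nextera XT and sequenced on a NovaSeq instrument, per the labels' protocols. The authors deposited 1 table of TPM for all 12 libraries, made with bcl2fastq and DRAGEN per the submitters' processing notes. No source used here gives their versions, the annotation or whether counting used strand. TPM hold no read counts, so no count model was run and the depth behind each value is unknown.

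TPM were transformed as log2(TPM + 1), after a filter of at least 1 TPM in 3 of the 6 libraries. limma 3.58.1 in R 4.3.3 was fitted with group and batch as terms over all 12 libraries, which share 1 estimate of spread, with trended and robust moderation (6 residual degrees of freedom). P-values were adjusted by the Benjamini-Hochberg method over 14508 genes at a threshold of 0.05. The steps were tested on simulated data. A few genes that the naming rule picks are not reported here. Python 3.11.15 with pandas 2.3.3, numpy 2.4.6 and matplotlib 3.10.9 made counts, medians and figures. The batch is a number in the labels that same-numbered libraries share, and its nature is not stated there. Deviations from the group means correlated at 0.194, -0.0414 and 0.242 in same-batch pairs of siSOX10_1 and siCNTL libraries, and at -0.318 to 0.217 in other pairs.

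The 56 gene lists and the genes named were chosen with earlier results of these data known. The genes named by rule were SOX10 and the title genes, the 10 called genes with the largest change each way (mean of at least 5 TPM and 1 direction in all 3 batches), up to 4 called members per list by size of change with the members that moved against the majority, the 5 extremes each way between the siRNAs, and the 5 each way set apart in batch 3. From these the text gives a selection, and a call lost without 1 library is given with that loss or only counted. MITF, POLR2F, IRF1-AS1, PPT2-EGFL8, EGFL7, PTPRC, EPCAM, COL3A1, COL1A2 and other members given as examples were chosen after their values were seen. Alternatives were other designs, filters, pseudocounts, scalings and thresholds, and each library or batch left out.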

Additional observations from a re-analysis of the deposited data

How the results depend on the processing

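No named gene that was called changed sign under the alternatives run. The balance of calls did turn with scaling: siSOX10_1 against siCNTL gave 2582 higher and 2645 lower under median-of-ratios scaling and 2627 and 2699 under quantile normalization. The unfolded protein list had 3 genes higher and 7 lower without batch 3, and 0 higher and 0 lower without batch 1. For siSOX10_1 against siCNTL, 2415 genes were higher and 1835 lower with no replicate block, and 2211 and 1859 in a fit of the 6 libraries with the block. In the 6 libraries without the block 1521 were lower. Without batch 1 the counts were 1365 and 1298, and without batch 2 they were 1804 and 1563. At an adjusted p under 0.01 they were 1770 and 1456, and at least 2-fold 1020 and 795. Leaving out 1 library gave 1983 to 2513 higher and 1840 to 2029 lower. Of 278 named genes called, 232 kept their call without any 1 library, and 66, 47 and 12 lost it without batch 1, 2 or 3 and 27 without the replicate block. The adjusted p of IRF1 was 0.0485 without the block, and in the fit of the 6 libraries it was 0.0874 with the block and 0.125 without it, where the call was lost. Of 112 list counts, 36, 24 and 13 moved by over 1.5 times without batch 1, 2 or 3.

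For siSOX10_1 against siSOX10_2, higher and lower counts were 75 and 133 with no replicate block, 58 and 139 with no filter, 293 and 172 with median-of-ratios scaling, and 59 and 132 without trend and robust options. Quantile normalization gave 310 higher. At an adjusted p under 0.01 they were 37 and 54, at least 2-fold 38 and 103, without batch 1 2 and 2, and without batch 2 0 and 7. Leaving out 1 library gave 38 to 99 higher and 63 to 126 lower. For siCNTL against untreated cells, 8 were higher without siCNTL replicate 2, 1 without batch 2, and 24 higher and 5 lower without batch 3. The causes were not tested. TPM give no depth, so the limit it sets on low genes is unknown.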
